A study of Mus musculus with 8 samples.

Results

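The cytochrome P450 genes of the newborn mouse epidermis were followed between Zfp750 knockout and wild-type animals. The genes taken were those whose symbol is Cyp followed by a digit, without Cyp51 and Cyp4f39, which gave 36 of the 15995 genes listed, in 13 families and 29 subfamilies. The samples were epidermal sheets of newborn C57BL/6J mice, 4 lacking Zfp750 in both copies (Zfp750-/-) and 4 wild type, with no treatment named beyond the genotype. Zfp750 encodes a zinc finger protein of differentiating keratinocytes, and the study asked how its loss bears on skin lipid metabolism and the skin barrier. All sheets had been lifted from the dermis after a cold overnight trypsin step, so the sheet holds every epidermal layer and the other cells that live in it. The labels name no promoter or Cre driver for the deletion and do not say whether each library is a separate animal, so a p-value here measures the spread between these samples.

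P450 enzymes are haem proteins that insert an oxygen atom into their substrate with electrons from a redox partner. The members in the endoplasmic reticulum take them from P450 oxidoreductase, and the mitochondrial members take them from ferredoxin. In skin they make and break down steroids, vitamin D, retinoic acid, fatty acid epoxides and omega-hydroxylated fatty acids, and they clear foreign chemicals.

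Levels are given as FPKM, fragments per kilobase of transcript and scaled to each library's mapped total, as the authors deposited them. A value missing from a library was taken as 0. A gene was tested where it reached 1 FPKM in at least 4 of the 8 libraries, and 11395 genes met this. A change passed where limma's p, adjusted over those genes after Benjamini and Hochberg, was under 0.05. Log2 changes are knockout minus wild type on the log2(FPKM + 1) scale with their standard error (SE, n = 4 each), a scale that understates the change of low genes.

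Zfp750 itself stood at 1.53 to 2.68 FPKM in the knockout libraries, against 81.6 to 119 FPKM in the wild-type libraries. Between 10637 and 11599 genes reached 1 FPKM per library, and the number of reads behind the values is unknown. Sample titles carry the code 11, 14 or 44, whose meaning the labels do not give. Knockouts 3 and 4 and wild types 1 and 2 carry code 44, while knockout 1 and wild type 4 carry code 11 and knockout 2 and wild type 3 carry code 14. Xist, the transcript that marks the inactive X chromosome of female cells, was listed at 126, 84.6, 150.4 and 1.84 FPKM in the knockout libraries in order, and at 0.0223, 0.0087, 118 and 0.0082 FPKM in the wild-type ones. The sexes were therefore not evenly spread over the genotypes.

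Of the 36 P450 genes, 19 were tested, and Cyp11a1 and Cyp4v3 came in through the wild-type libraries alone, so that these 2 had to differ. The change passed in 7 of the 19, with 1 higher and 6 lower in the knockout, beside 15.7% of all genes tested that passed, 6.72% higher and 8.94% lower. Without the 2 that had to differ, 5 of 17 passed, 1 higher and 4 lower. The 4 libraries of each genotype did not overlap in the same 7 genes, 1 with the knockouts above and 6 with them below. Of all genes tested, 8.78% and 12.5% did so. Cyp11a1 and Cyp4v3 had to lie apart in this count too, and without them 5 genes remain, 1 above and 4 below. The median change of the tested P450 genes was -0.31, against 0.01 over all genes tested. That median includes the 2 that had to differ, and without them the middle value is the -0.06 of Cyp2r1. The genes that fell were Cyp11a1, Cyp17a1, Cyp2s1, Cyp2f2, Cyp2g1 and Cyp4v3, and the gene that rose was Cyp39a1. The other 12 did not pass, among them Cyp2b19, the most abundant member. In bulk RNA, fewer cells of a type and less RNA per cell cannot be told apart.

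**Figure D1:**
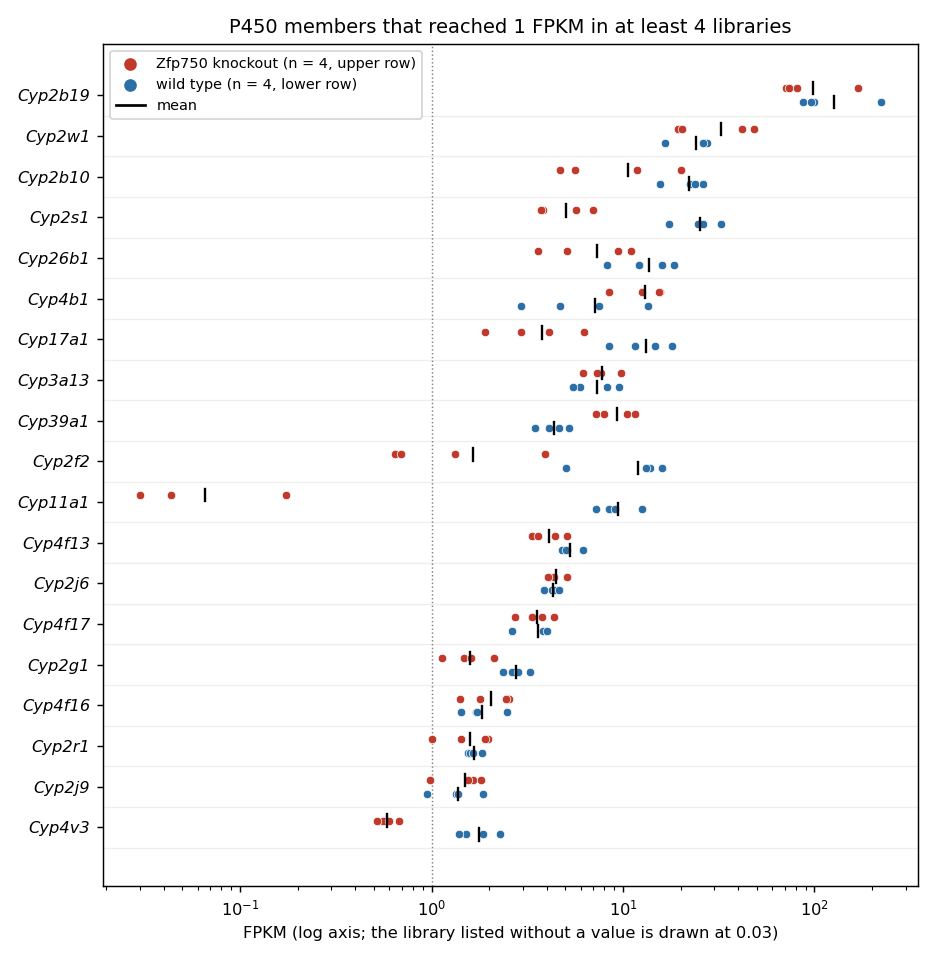
FPKM of the 19 P450 genes that reached 1 FPKM in at least 4 libraries (horizontal log axis), 1 point per library, knockout row above wild-type row, with a bar at each mean and a dotted line at 1 FPKM. Cyp2b19 is the most abundant in both genotypes, and the Cyp11a1 knockouts lie at 0.174 FPKM or below, with the library that has no value drawn at 0.03 and 2 of the others nearly on one spot.

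**Figure D2:**
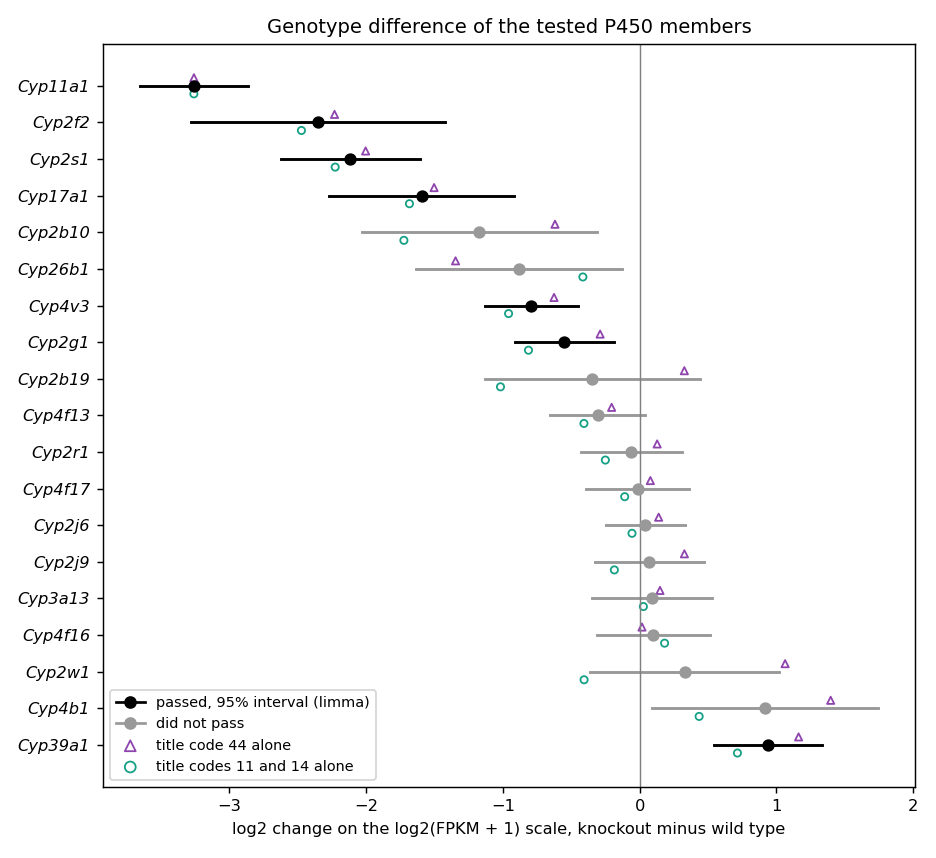
Log2 change, knockout minus wild type, of the same 19 genes on the log2(FPKM + 1) scale (horizontal axis), with the 95% interval from limma and the changes within title code 44 and within codes 11 and 14 as open symbols. Cyp11a1 lies lowest at -3.26 with both open symbols on it, while Cyp2w1 and Cyp2b19 have open symbols on either side of 0.

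Windows before the RefSeq transcription starts of Cyp11a1, Cyp2s1 and Cyp2f2, the 3 genes with the largest falls, are shown with that of Cyp2b19, whose level did not pass. Each is the 250 bases before a RefSeq start (GRCm38.p6), on the gene's strand. Capitals mark every match, on either strand, to CCNNAGGC, known as the motif of the human orthologue ZNF750, to GCGTG, the core bound by the aryl hydrocarbon receptor (AHR), to AGGTCA, a nuclear receptor half-site, to CACCC, bound by Krüppel-like factors, and to TATAAA. No 2 of these matches overlap. The windows of Cyp11a1 lie at chr9:57997774-57998023 and chr9:58014702-58014951 on the plus strand. Those of Cyp2s1, Cyp2f2 and Cyp2b19 lie at chr7:25816526-25816775 on the minus strand, and at chr7:27119705-27119954 and chr7:26756892-26757141 on the plus strand. RefSeq and GENCODE place some starts differently. The first Cyp11a1 window lies upstream of the gene as GENCODE annotates it and the second inside it, the Cyp2s1 window lies inside its GENCODE gene, the Cyp2f2 window reaches into its gene, and the Cyp2b19 window ends at the base before its gene.
Cyp11a1, start 1: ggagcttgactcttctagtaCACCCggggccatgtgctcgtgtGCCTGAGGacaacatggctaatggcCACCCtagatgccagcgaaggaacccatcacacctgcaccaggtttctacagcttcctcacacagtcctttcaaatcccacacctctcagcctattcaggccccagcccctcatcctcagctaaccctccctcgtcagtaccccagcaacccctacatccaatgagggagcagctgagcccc
Cyp11a1, start 2: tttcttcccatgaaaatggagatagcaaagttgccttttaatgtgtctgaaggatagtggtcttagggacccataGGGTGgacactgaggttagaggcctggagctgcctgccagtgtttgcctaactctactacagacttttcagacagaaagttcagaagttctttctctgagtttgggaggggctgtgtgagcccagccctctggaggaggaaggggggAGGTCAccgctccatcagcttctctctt
Cyp2s1: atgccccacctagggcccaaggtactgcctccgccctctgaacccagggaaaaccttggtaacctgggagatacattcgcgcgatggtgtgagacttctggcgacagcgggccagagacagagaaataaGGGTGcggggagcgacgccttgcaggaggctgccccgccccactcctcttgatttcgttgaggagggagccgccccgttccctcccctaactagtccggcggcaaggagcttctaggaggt
Cyp2f2: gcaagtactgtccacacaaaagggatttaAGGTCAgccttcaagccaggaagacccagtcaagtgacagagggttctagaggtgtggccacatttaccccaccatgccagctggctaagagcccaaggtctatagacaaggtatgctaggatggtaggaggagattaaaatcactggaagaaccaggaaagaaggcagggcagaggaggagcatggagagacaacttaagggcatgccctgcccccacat
Cyp2b19: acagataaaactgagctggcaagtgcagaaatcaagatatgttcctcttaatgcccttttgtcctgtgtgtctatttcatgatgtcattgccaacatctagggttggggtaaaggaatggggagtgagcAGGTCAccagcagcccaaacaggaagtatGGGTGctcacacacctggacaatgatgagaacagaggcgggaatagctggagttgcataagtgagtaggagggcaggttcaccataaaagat

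The first Cyp11a1 window held the single CCNNAGGC match among these 5, on the minus strand with its first base at -207 from the start, and 2 CACCC matches on the plus strand at -230 and -182. The second Cyp11a1 window held AGGTCA at -28 on the plus strand and CACCC at -175 on the minus strand. The Cyp2s1 window held 1 match, CACCC on the minus strand at -121, and the Cyp2f2 window also 1, AGGTCA on the plus strand at -221. The Cyp2b19 window held AGGTCA at -121 on the plus strand and CACCC at -92 on the minus strand. None of the 5 held GCGTG or TATAAA. Across the 27 windows found for 26 P450 genes, CCNNAGGC was present in 22.2%, against 20.4% of all 32851 windows. The shares for the P450 windows and for all windows were 33.3% and 28.2% for GCGTG, 18.5% and 14% for AGGTCA, 70.4% and 52.0% for CACCC, and 14.8% and 12.4% for TATAAA. A match is a string of letters and does not show that a factor binds there.

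Among the steroid enzymes, Cyp11a1 fell to near 0 in the knockout. It encodes the mitochondrial enzyme that cuts the cholesterol side chain to give pregnenolone, the first step of steroid hormone synthesis, and lies on chromosome 9 (58006411 to 58027023, plus strand, GRCm38). Its level was 0.0436, 0.174 and 0.0436 FPKM in knockouts 1, 2 and 4, with no value listed in knockout 3, against 8.48, 9.09, 12.6 and 7.24 FPKM in the wild-type libraries. Every knockout library lay far below the lowest wild-type library. Cyp11a1 came into the test through the wild-type libraries alone, so it had to differ. The log2 change was -3.26 ± 0.18 (limma adjusted p = 8.7e-06), with the missing value taken as 0 and a 95% interval of -3.66 to -2.86. It was -3.26 in title code 44 alone and -3.26 in codes 11 and 14 alone. With knockout values near 0 this size is set largely by the 1 FPKM added, and with 0.1 FPKM added the change was -5.91. By mean level Cyp11a1 ranked 29th of the 36 genes in the knockout and 8th in the wild type. An unlisted gene, Gm17322, overlaps its exons on the same strand, and 1.48% of its 75-base windows occur in another gene.

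Cyp17a1, the hydroxylase that acts on pregnenolone and progesterone at carbon 17, fell as well and lies on chromosome 19 (46667165 to 46673172, minus strand, GRCm38). It stood at 1.89, 2.95, 4.11 and 6.22 FPKM in the knockout libraries, against 17.9, 14.6, 8.41 and 11.5 FPKM in the wild-type libraries. The groups did not overlap, with the highest knockout below the lowest wild type. Its log2 change was -1.59 ± 0.30 (limma adjusted p = 0.00683), with -1.50 in code 44 and -1.68 in codes 11 and 14. Cyp11b1, the 11-beta-hydroxylase of glucocorticoid synthesis, was not tested and reached at most 0.19 FPKM in the knockout and 0.0303 FPKM in the wild type.

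The other genes of steroid supply and use included 20 that were tested, of which 2 rose, 6 fell and 12 did not pass. Their median change was -0.19, and over all genes tested 6.72% rose and 8.94% fell. Hsd17b2, which oxidises estradiol and testosterone, fell by 0.87 ± 0.12 on the log2 scale (limma adjusted p = 0.00145). Hsd17b12, a reductase of fatty acid elongation that can also act on estrone, fell by 0.55 ± 0.11 (limma adjusted p = 0.0105), and Stard4, a cholesterol carrier, fell by 0.85 ± 0.18 (limma adjusted p = 0.0121). These 3 passed with any 1 library left out. Hsd17b4, Srd5a1 and Sult2b1 fell and Scarb1 rose, each with a call that was lost without knockout 2, wild type 1 or wild type 2, and without some of the other libraries. Star, which carries cholesterol into the mitochondrion, averaged 1.2 ± 0.363 FPKM in the knockout and 1.12 ± 0.458 FPKM in the wild type (SD), with a log2 change of 0.06 ± 0.20 (limma adjusted p = 0.88).

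Of the markers of steroid-producing gland cells, Fdx1 stood at 7.62 to 10.8 FPKM in the knockout and 9.59 to 15.7 FPKM in the wild type. The listed markers Star, Nr5a1 and Mc2r were low in both genotypes. Of 7 such genes that are not among the members above, Cyp21a1, Hsd3b1 and Cyp11b2 have no row, and Nr5a1, the factor that defines those cells, reached at most 0.184 FPKM in the knockout and 0.0253 FPKM in the wild type. The 4 listed markers summed to 8.86 to 11.9 FPKM in the knockout libraries, against 11.5 to 16.7 FPKM in the wild-type libraries, most of it Fdx1.

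**Figure D3:**
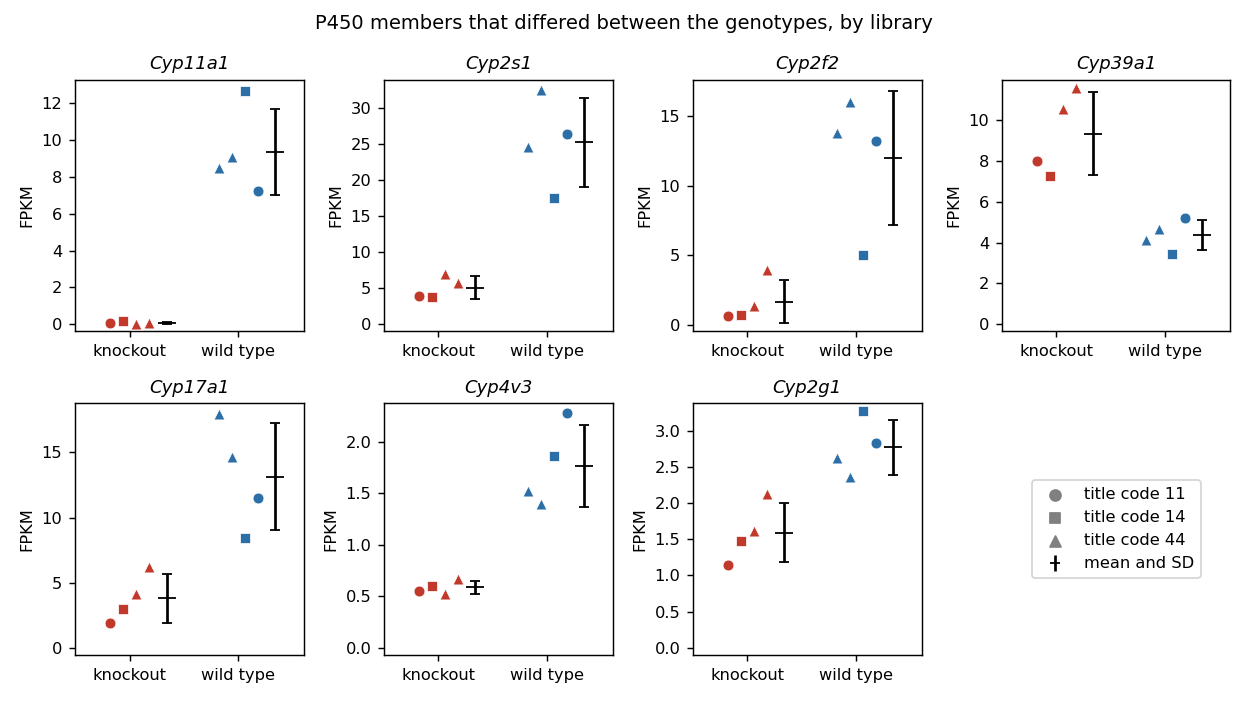
FPKM by library of the 7 P450 genes that passed (vertical axes start at 0 and differ between panels), knockout left of wild type, with symbols for the title code and a bar for mean and SD. In each panel the 4 knockout points lie apart from the 4 wild-type points, above them for Cyp39a1 and below them for the other 6. For Cyp11a1 and Cyp4v3 the filter had fixed this.

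Cyp39a1, which hydroxylates 24-hydroxycholesterol at carbon 7, was the one P450 gene that rose, and lies on chromosome 17 (43667425 to 43751431, plus strand, GRCm38). It stood at 8.0, 7.27, 10.5 and 11.6 FPKM in the knockout libraries, against 4.13, 4.64, 3.45 and 5.19 FPKM in the wild-type libraries. The lowest knockout lay above the highest wild type. On the log2 scale the change was 0.94 ± 0.18 (limma adjusted p = 0.00677), with 1.16 in code 44 and 0.72 in codes 11 and 14, where it did not pass (limma adjusted p = 0.0607). Cyp27a1, the mitochondrial sterol 27-hydroxylase, was below the level for testing, at 0.225 to 0.313 FPKM in the knockout and 0.191 to 0.755 FPKM in the wild type. Cyp7b1, which acts on 25- and 27-hydroxycholesterol, likewise ranged over 0.205 to 0.573 FPKM in the knockout and 0.0346 to 0.354 FPKM in the wild type.

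Of 10 tested genes around oxysterols, 3 fell and 7 did not pass, where 8.94% of all genes tested fell. Their median change was -0.17. Insig2, which holds back sterol synthesis when sterols are plentiful, fell by 1.26 ± 0.21 on the log2 scale (limma adjusted p = 0.00328). Rora, a nuclear receptor that binds sterols, fell by 0.64 ± 0.12 (limma adjusted p = 0.00764). Cyp51, the lanosterol demethylase set apart from the members above, ranged over 41.6 to 62.2 FPKM in the knockout and 40.9 to 56.7 FPKM in the wild type.

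Family 2 was the largest, with 15 genes, of which 9 were tested and 3 fell. Cyp2s1 is an enzyme of epithelia outside the liver that is induced through AHR and, in humans, acts on retinoic acid. It lies on chromosome 7 (25802475 to 25816913, minus strand, GRCm38). Its level was 3.84, 3.75, 7.0 and 5.65 FPKM in the knockout libraries, against 24.6, 32.4, 17.4 and 26.3 FPKM in the wild-type libraries. The groups lay well apart, and its rank by mean level was 8th of 36 in the knockout and 2nd in the wild type. The fitted log2 change was -2.11 ± 0.23 (limma adjusted p = 0.000275), with -2.0 in code 44 and -2.23 in codes 11 and 14.

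Cyp2f2, known for activating naphthalene in the club cells of the mouse lung, fell too (chromosome 7, 27119909 to 27133660, plus strand, GRCm38). It stood at 0.646, 0.691, 1.32 and 3.91 FPKM in the knockout libraries, against 13.8, 16, 5.04 and 13.2 FPKM in the wild-type libraries. Knockout 4 came nearest to wild type 3, but the groups did not overlap. The log2 change was -2.35 ± 0.41 (limma adjusted p = 0.00469), with -2.23 in code 44 and -2.47 in codes 11 and 14, and it was -1.53 with the level of Xist in the model, where it still passed.

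Cyp2g1, an enzyme of the olfactory lining in rodents, was low in both genotypes (chromosome 7, 26808892 to 26821205, plus strand, GRCm38). It stood at 1.14, 1.47, 1.62 and 2.12 FPKM in the knockout libraries, against 2.62, 2.36, 3.27 and 2.82 FPKM in the wild-type libraries. The highest knockout lay close below the lowest wild type. Its log2 change was -0.55 ± 0.16 (limma adjusted p = 0.0477), with -0.29 in code 44, where it did not pass, and -0.81 in codes 11 and 14. This call was lost when any 1 library other than knockout 4 was left out, with adjusted p of 0.0737 to 0.124 in those 7 fits.

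Cyp2b19, the most abundant P450 gene in both genotypes, did not pass. It makes epoxides of arachidonic acid in mouse keratinocytes and stood at 70.7, 73.5, 80.7 and 169.6 FPKM in the knockout libraries, against 99.6, 87.0, 223.5 and 96.5 FPKM in the wild-type libraries. Each group had 1 library well above the other 3, and the groups overlapped. On the log2 scale the change was -0.34 ± 0.35 (limma adjusted p = 0.573), with a 95% interval of -1.13 to 0.44, and it was 0.33 in code 44 and -1.02 in codes 11 and 14. Cyp2b19 gave 38.6% to 54.9% of the summed P450 FPKM in the knockout libraries and 33.6% to 58.9% in the wild-type libraries.

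Cyp2b10, known as a target of the receptor CAR in liver, stood at 4.68, 5.63, 11.8 and 20.1 FPKM in the knockout libraries, against 22.4, 26.2, 23.8 and 15.6 FPKM in the wild-type libraries. Knockout 4 alone lay above a wild-type library, and without it the change of -1.53 passed (limma adjusted p = 0.00594). With all libraries the log2 change was -1.17 ± 0.38 and did not pass (limma adjusted p = 0.0688), with -0.62 in code 44 and -1.72 in codes 11 and 14, where it passed (limma adjusted p = 0.00614). It passed also with the title code as a block (limma adjusted p = 0.0112).

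Cyp2w1, an enzyme with no settled natural substrate, stood at 19.4, 20.4, 41.7 and 48.4 FPKM in the knockout libraries, against 16.5, 26.6, 27.4 and 26 FPKM in the wild-type libraries. The higher knockouts were those of code 44 and the lower ones those of codes 11 and 14, on either side of most wild types. The fitted log2 change was 0.33 ± 0.31 (limma adjusted p = 0.534) over all libraries. It was 1.06 in code 44 (limma adjusted p = 0.0468) and -0.41 in codes 11 and 14 (limma adjusted p = 0.118).

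The remaining tested genes of family 2 did not pass. Cyp2j6 and Cyp2j9, which belong to an epoxygenase subfamily, summed to 5.36 to 6.66 FPKM in the knockout and 5.2 to 6.47 FPKM in the wild type. Cyp2j6 had a log2 change of 0.04 ± 0.13 (limma adjusted p = 0.866) and Cyp2j9 of 0.07 ± 0.18 (limma adjusted p = 0.831), both smaller than their errors. Cyp2r1, the 25-hydroxylase of vitamin D, ranged over 1.01 to 1.98 FPKM in the knockout and 1.56 to 1.84 FPKM in the wild type, with a log2 change of -0.06 ± 0.17 (limma adjusted p = 0.847). Cyp2t4 stayed below the level for testing, at 0.0687 to 0.351 FPKM in the knockout and 0.0637 to 0.542 FPKM in the wild type.

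Of the family 2 genes, 7 lie in a stretch of 1356 kb on chromosome 7 in which no other gene of the table lies whole, and 6 further P450 genes in it have no row. In order, Cyp2s1 and Cyp2b10 lie at one end, Cyp2b19 and Cyp2g1 at 955 and 1006 kb, and Cyp2a22, Cyp2f2 and Cyp2t4 from 1129 kb onward. Of the 5 tested there, 3 fell and 2 did not pass, where 8.94% of all genes tested fell. This stretch was singled out after the values were seen, so the count is a description. Cyp2b10 and Cyp2b19, which did not pass, lie between Cyp2s1 and Cyp2g1, while Cyp2g1 and Cyp2f2 have no tested gene between them. For Cyp2b10, 2.76% of 75-base windows recur in another gene, and the share was 2.76% for Cyp2g1, 0.733% for Cyp2b19 and 0% for Cyp2s1 and Cyp2f2.

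**Figure D4:**
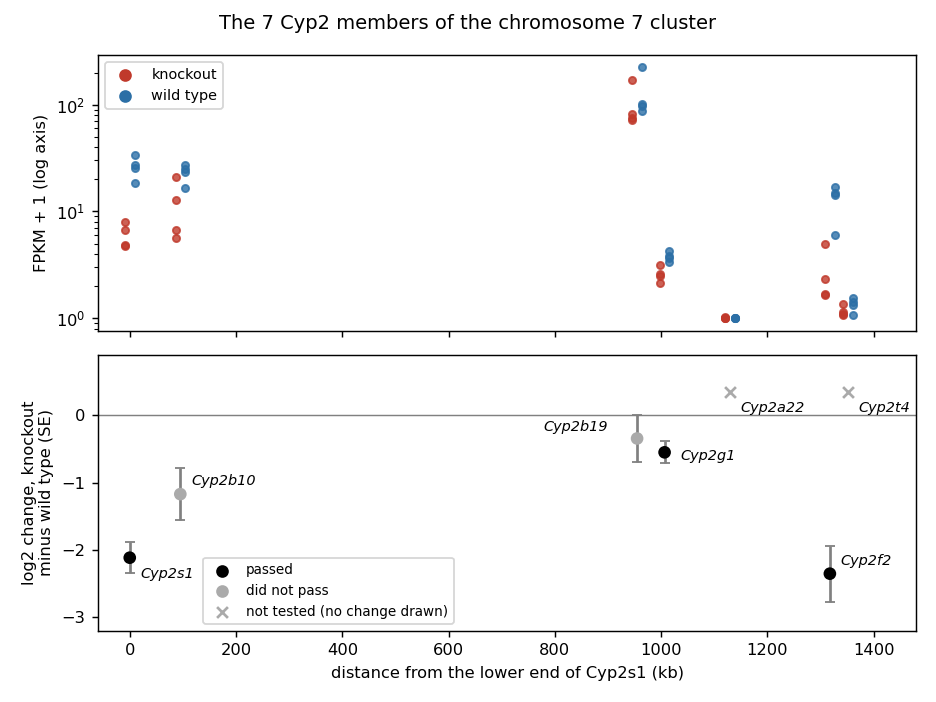
The 7 P450 genes of the chromosome 7 stretch by distance from the lower end of Cyp2s1 in kb. The upper panel gives FPKM + 1 per library on a log axis, knockout left of wild type, and the lower panel the log2 change with SE for the 5 tested genes, all of them below 0, of which 3 passed, with crosses at an arbitrary height for the 2 not tested.

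Family 4, which hydroxylates fatty acids at or near the last carbon, had 8 genes, 5 of them tested. Cyp4v3, the mouse counterpart of human CYP4V2, fell and was low in both genotypes (chromosome 8, 45304944 to 45333216, minus strand, GRCm38). It stood at 0.555, 0.602, 0.518 and 0.673 FPKM in the knockout libraries, against 1.52, 1.40, 1.86 and 2.29 FPKM in the wild-type libraries. The groups did not overlap, which its entry through the wild-type libraries alone had fixed beforehand. The log2 change was -0.79 ± 0.15 (limma adjusted p = 0.00735), with -0.63 in code 44, where it did not pass (limma adjusted p = 0.13), and -0.96 in codes 11 and 14. With 0.1 FPKM added in place of 1 it was -1.42. An unlisted gene, Gm45753, overlaps its exons on the same strand, and 6.40% of its 75-base windows recur in another gene.

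Cyp4b1, which hydroxylates fatty acids and foreign compounds, stood at 15.6, 12.5, 15.4 and 8.44 FPKM in the knockout libraries, against 2.93, 4.67, 7.53 and 13.4 FPKM in the wild-type libraries. Wild type 4 lay among the knockouts, and without it the change of 1.25 passed (limma adjusted p = 0.0252). With all libraries the log2 change was 0.92 ± 0.37 and did not pass (limma adjusted p = 0.134), with 1.40 in code 44 and 0.44 in codes 11 and 14. It passed with the title code as a block (limma adjusted p = 0.0388). The same gene ranked 3rd by mean level among the knockouts and 10th among the wild types.

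The 4f genes are known for omega-hydroxylation of long fatty acids and leukotrienes. The 4 members of that subfamily summed to 9.31 to 10.9 FPKM in the knockout and 10.4 to 11.7 FPKM in the wild type. Cyp4f13 had a log2 change of -0.31 ± 0.16 (limma adjusted p = 0.238), Cyp4f16 of 0.10 ± 0.18 (limma adjusted p = 0.769) and Cyp4f17 of -0.01 ± 0.17 (limma adjusted p = 0.967). None of these 3 passed, and for Cyp4f16 10.1% of 75-base windows recur in another gene. Cyp4f39, which hydroxylates the very long fatty acids of barrier ceramides and was set apart from the members above, ranged over 74.1 to 119 FPKM in the knockout and 54.6 to 94.0 FPKM in the wild type. The pseudogene Cyp4a29-ps was not tested, although its groups did not overlap. It stood at 0.155, 0.311, 0.431 and 0.486 FPKM in the knockout libraries, against 0.0371 FPKM in wild type 1 and no value in wild types 2 to 4.

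Among 12 tested genes that handle fatty acid epoxides and omega-hydroxy fatty acids, 3 fell and 9 did not pass. Their median change was -0.33, and 8.94% of all genes tested fell. Aldh3a2, the fatty aldehyde dehydrogenase that is mutated in Sjögren-Larsson syndrome, averaged 6.61 ± 0.767 FPKM in the knockout and 19.1 ± 2.58 FPKM in the wild type (SD), a log2 change of -1.40 ± 0.14 (limma adjusted p = 0.000182). Ephx2, the soluble epoxide hydrolase, averaged 1.90 ± 0.391 FPKM in the knockout and 4.77 ± 0.285 FPKM in the wild type (SD), a log2 change of -1.0 ± 0.15 (limma adjusted p = 0.00168). Fmo2, a flavin monooxygenase, fell by 0.79 ± 0.18 (limma adjusted p = 0.0153). These 3 calls held with any 1 library left out.

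Cyp26b1, which breaks down retinoic acid, did not pass. It stood at 9.41, 11.1, 5.07 and 3.59 FPKM in the knockout libraries, against 18.4, 8.27, 15.9 and 12.2 FPKM in the wild-type libraries. Wild type 2 lay among the knockouts. Its log2 change was -0.88 ± 0.34 (limma adjusted p = 0.114), with a 95% interval of -1.63 to -0.13, and with -1.35 in code 44 and -0.41 in codes 11 and 14.

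In the retinoid pathway 20 genes were tested, of which 1 rose, 6 fell and 13 did not pass. Their median change was -0.35, and over all genes tested 6.72% rose and 8.94% fell. Rarres1, a gene known to respond to retinoids, averaged 11.1 ± 0.972 FPKM in the knockout and 78.5 ± 16.9 FPKM in the wild type (SD), a log2 change of -2.69 ± 0.16 (limma adjusted p = 1.29e-05). The retinol dehydrogenases Adh7, Rdh10 and Adh1 fell by 1.65 ± 0.21 (limma adjusted p = 0.000662), by 1.23 ± 0.20 (limma adjusted p = 0.00303) and by 1.80 ± 0.31 (limma adjusted p = 0.00431). Adh7 reached 1 FPKM in the wild-type libraries alone, so it had to differ. Dhrs3 and Sdr16c6 fell too, while Crabp2, which carries retinoic acid, rose by 0.90 ± 0.18 (limma adjusted p = 0.00935). Rarg, the main retinoic acid receptor of the epidermis, averaged 50.8 ± 5.30 FPKM in the knockout and 45.2 ± 7.22 FPKM in the wild type (SD) and did not pass (0.17 ± 0.14, limma adjusted p = 0.474). Leaving out wild type 1 or wild type 2 ended the call of Sdr16c6, and leaving out any other library did not.

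The vitamin D enzymes were scarce apart from Cyp2r1. Cyp27b1, which makes the active hormone, reached at most 0.335 FPKM in the knockout and 0.225 FPKM in the wild type, and Cyp24a1, which inactivates it, at most 0.057 FPKM in the knockout and 0.124 FPKM in the wild type. Vdr, the receptor, averaged 4.90 ± 0.663 FPKM in the knockout and 5.70 ± 0.403 FPKM in the wild type (SD) and did not pass (-0.19 ± 0.13, limma adjusted p = 0.406). Of 8 tested genes of that pathway, 1 fell and 7 did not pass, where 8.94% of all genes tested fell. Trpv6, a calcium channel, was the gene that fell, by 0.77 ± 0.21 (limma adjusted p = 0.0371). That call was lost when any library other than knockout 3 or knockout 4 was left out.

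Among the enzymes that act on foreign chemicals, Cyp3a13 had a log2 change of 0.09 ± 0.20 (limma adjusted p = 0.81), at 6.17 to 9.76 FPKM in the knockout and 5.45 to 9.52 FPKM in the wild type. Cyp1b1, an AHR target, reached at most 0.33 FPKM in the knockout and 0.156 FPKM in the wild type, below the level for testing. Ahr itself averaged 21.8 ± 6.26 FPKM in the knockout and 20.7 ± 4.60 FPKM in the wild type (SD) and did not pass (0.05 ± 0.22, limma adjusted p = 0.899). Of 10 tested genes of its pathway, 3 rose, 1 fell and 6 did not pass, with a median change of 0.24. Over all genes tested 6.72% rose and 8.94% fell. Ugt1a7c, a glucuronosyltransferase whose exons are largely shared with other Ugt1a genes so that its value is uncertain, fell by 1.65 ± 0.17 (limma adjusted p = 0.000188). Arnt, the partner of AHR, rose by 0.60 ± 0.14 (limma adjusted p = 0.0182), Nfe2l2 by 1.10 ± 0.28 (limma adjusted p = 0.0268) and Tiparp by 1.17 ± 0.34 (limma adjusted p = 0.0468). The calls of Arnt, Nfe2l2 and Tiparp were each lost when some single libraries were left out, knockout 3 for Arnt, knockout 1 and knockout 2 for Nfe2l2 and Tiparp, and wild type 1 and wild type 2 for all 3, with wild type 3 and wild type 4 also for Tiparp. Of the nuclear receptors that sense foreign compounds or fatty acids, Ppard was the 1 tested and rose by 0.62 ± 0.16 (limma adjusted p = 0.0251), a call lost without knockout 1, wild type 1, wild type 2 or wild type 4.

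The remaining members were close to the floor. Cyp20a1, an enzyme with no known substrate, ranged over 0.262 to 1.01 FPKM in the knockout and 0.502 to 1.13 FPKM in the wild type. Of the 17 genes not tested, 13 stayed below 0.5 FPKM in every library, the highest value among them being the 0.486 FPKM of Cyp4a29-ps in knockout 4. They were Cyp1b1, Cyp2a22, Cyp2ab1, Cyp2d22, Cyp2d26, Cyp2u1, Cyp4a29-ps, Cyp4a32, Cyp4f41-ps, Cyp11b1, Cyp24a1, Cyp27b1 and Cyp46a1. All 13 lay below the level for testing, and of these the fit without that filter called Cyp4a29-ps alone, as higher.

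The electron donors and the haem pathway differed by gene. Por, the reductase that serves the P450 enzymes of the endoplasmic reticulum, averaged 46.1 ± 3.72 FPKM in the knockout and 42.6 ± 7.13 FPKM in the wild type (SD) and did not pass (0.12 ± 0.14, limma adjusted p = 0.607). Fdx1, the ferredoxin that serves Cyp11a1, averaged 9.26 ± 1.49 FPKM in the knockout and 13.3 ± 2.64 FPKM in the wild type (SD) and did not pass (-0.47 ± 0.17, limma adjusted p = 0.102). Fdxr, its reductase, had a log2 change of -0.03 ± 0.17 (limma adjusted p = 0.927). Of 11 tested redox partners 2 rose, 1 fell and 8 did not pass, with a median change of -0.01. Over all genes tested 6.72% rose and 8.94% fell.

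Pgrmc2, a haem-binding membrane protein, averaged 26.7 ± 3.46 FPKM in the knockout and 70.6 ± 6.71 FPKM in the wild type (SD), a log2 change of -1.37 ± 0.13 (limma adjusted p = 0.000118). Cyb5b, a cytochrome b5, rose by 0.82 ± 0.13 (limma adjusted p = 0.00255), and Cyb5r3, a cytochrome b5 reductase, rose by 0.81 ± 0.19 (limma adjusted p = 0.0186), a call lost without knockout 3 or wild type 2. In haem synthesis and breakdown 12 genes were tested, of which 3 fell and 9 did not pass. Their median change was -0.06, and 8.94% of all genes tested fell. Fech, which places the iron in haem, fell by 0.73 ± 0.13 (limma adjusted p = 0.00528), and Blvrb, a biliverdin reductase, fell by 1.12 ± 0.14 (limma adjusted p = 0.000615). Hmox2, a haem oxygenase, fell by 0.36 ± 0.11 (limma adjusted p = 0.047), a call lost whichever library was left out.

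Across the 9 lists of genes around the P450 enzymes, 33 of 102 tested genes passed, 9 higher and 24 lower, beside 15.7% of all genes tested. They include Adh7, which came in through the wild-type libraries alone and had to differ. Of these 33, 16 passed both in code 44 alone and in codes 11 and 14 alone, fits on parts of the same libraries.

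**Figure D5:**
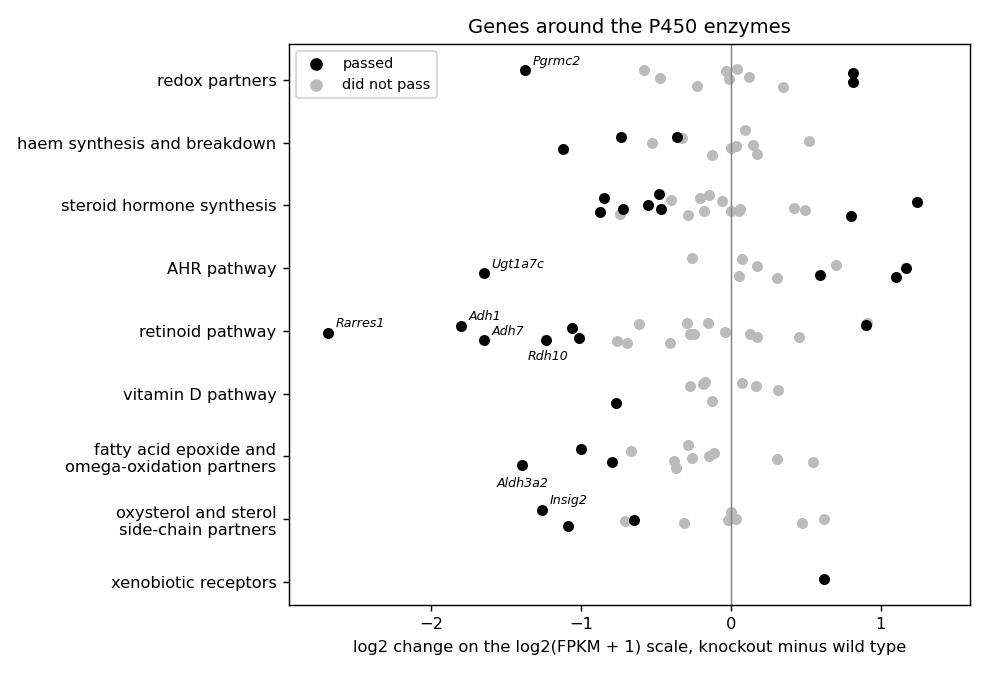
Log2 change, knockout minus wild type, on the log2(FPKM + 1) scale (horizontal axis) of the tested genes in the 9 lists around the P450 enzymes, 1 point per gene with a small vertical scatter for legibility, black where the change passed. Rarres1 at -2.69 lies lowest, and most of the genes that passed lie below 0.

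Summed over the 36 genes, P450 FPKM was 163.5, 165.6, 209 and 309 in the knockout libraries, against 261, 259, 379 and 261 in the wild-type libraries, and the groups overlapped. Without Cyp2b19 the sums were 92.8, 92.2, 128 and 140 in the knockout libraries, against 162, 172, 156 and 165 in the wild-type libraries. The highest knockout was then below the lowest wild type. These sums include Cyp11a1 and Cyp4v3, which gave 12.6 and 1.86 FPKM in wild type 3, the lowest wild type. In knockout 4, the highest knockout, they gave 0.0436 and 0.673 FPKM. Whether the groups lie apart without these genes was not tested.

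Some markers of other cells of the epidermis differed between the genotypes and others did not, where 15.7% of all genes tested passed. Of 13 markers listed for Langerhans cells, Cd207 has no row and 10 were tested. C1qa, C1qb, C1qc, Ctss, Csf1r and Cd74 fell, while Epcam, Mfge8, Cd68 and H2-Ab1 did not pass. Ctss and Csf1r reached 1 FPKM in the wild-type libraries alone, so these 2 had to differ. The list summed to 64.3 to 146 FPKM in the knockout libraries, against 143 to 216 FPKM in the wild-type libraries, and Epcam, which keratinocytes also express, made up 52.9 to 124 FPKM of it in the knockout and 63.8 to 103 FPKM in the wild type. Of 10 markers of dendritic epidermal T cells, Trdc, Trgc1 and Xcl1 have no row, and Ptprc and Cd3g, the 2 tested, fell. Both reached 1 FPKM in the wild-type libraries alone, so these 2 had to differ. That list summed to 1.38 to 2.70 FPKM in the knockout libraries, against 6.81 to 11.5 FPKM in the wild-type libraries. Of 7 Merkel cell markers 1 was tested, Chga, which fell to 0.817 to 1.87 FPKM in the knockout, against 25.8 to 56.6 FPKM in the wild type, and the list summed to 2.40 to 3.34 FPKM in the knockout and 28.2 to 59.7 FPKM in the wild type. Almost all of the wild-type sum was Chga. The other 6 Merkel cell markers (Atoh1, Krt20, Sox2, Isl1, Piezo2 and Syp) reached at most 0.687 FPKM in the knockout and 0.791 FPKM in the wild type, and each overlapped between the genotypes.

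The neutrophil markers S100a8 and S100a9, which stressed keratinocytes also make, rose by 3.69 ± 0.55 (limma adjusted p = 0.00202) and by 5.09 ± 0.57 (limma adjusted p = 0.000374). The 4 listed markers summed to 45.1 to 255 FPKM in the knockout, nearly all of it these 2, and 1.77 to 7.49 FPKM in the wild type. Mpo and Cxcr2 reached at most 0.325 and 0.989 FPKM in the knockout, and each overlapped between the genotypes. Ly6g, Elane, Retnlg and Csf3r have no row. Of 6 basal keratinocyte markers Krt14, Itga6 and Col17a1 rose, and of 6 suprabasal markers Ivl rose. Of 4 tested sebaceous markers Far2 fell. The calls of Krt14, Itga6 and Far2 were each lost without any 1 of knockouts 1 to 3 or wild type 1, those of Krt14 and Itga6 also without wild type 2 and that of Far2 without wild type 4. In the lists for melanocytes, fibroblasts, mast cells, adipocytes and hair follicle no gene of 21 tested passed in limma, and 1 was at an unadjusted p under 0.05. The endothelial cell and hepatocyte lists had no gene that could be tested. The part of any of these cells in the P450 results was not tested.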

How the data were processed

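Total RNA of peeled epidermis had been depleted of ribosomal RNA and sequenced from stranded libraries as read pairs of 75 bases on an Illumina NextSeq, per the labels' protocols. The authors deposited 1 table of FPKM values per gene symbol and library. The one genome build named is mm10, per the submitters' processing notes. Which aligner, counting program, gene models and strand setting were used is not stated in the sources used here, and overlapping genes may share reads. FPKM carries no read counts, so depth is unknown and no counting interval is given.

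Missing values (in 2029 genes) were taken as 0, and 4 genes listed at exactly 0 in some libraries and above 100 FPKM in others (Krt1, Krt10, Flg2 and Rn45s) were left out. Genes reaching 1 FPKM in at least 4 of 8 libraries (3 of 7 or 2 of 4 in smaller fits) were compared on log2(FPKM + 1) with limma (version 3.58.1, R 4.3.3), using its trend option and genotype as the single term. The script was tested on simulated data. Samples were grouped by the genotype label. Replicate numbers are names in the order of the records and pair nothing. Positions come from GENCODE M21 (GRCm38, the same build as mm10), and promoter windows from RefSeq (GRCm38.p6), which held a window for 26 of the 36 genes.

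Every P450 gene that was tested is named, with the members reaching 0.5 FPKM among the rest. Of each partner list the called genes with the 4 smallest p are named, and Por, Fdx1, Fdxr, Star, Vdr, Ahr and Rarg always. Of the genes this rule takes, 2 are counted but not reported here by name. Other called list genes, the chromosome 7 stretch, the promoter windows shown and the interaction of genotype with title code were chosen after their values were seen. The members and lists were chosen with earlier results of these data known. The alternatives varied the pseudocount, the filter, the treatment of missing values, the scaling, the trend, array weights, the title code, Xist as a covariate, and the libraries.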

Additional observations from a re-analysis of the deposited data

Results flagged for a closer look

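Of 40 groups of 4 libraries examined (19 P450 genes and their sum, in each genotype), 5 had 1 library far from the other 3, and chance marks about 1 group in 20. Cyp2b19 stood at 169.6 FPKM in knockout 4, against 70.7 to 80.7 FPKM in the other knockouts. In wild type 3 it stood at 223.5 FPKM, against 87.0 to 99.6 FPKM in the other wild types. The 36 genes summed to 379 FPKM in wild type 3 and to between 259 and 261 FPKM in the remaining wild types. Cyp2w1 stood at 16.5 FPKM in wild type 1, against 26 to 27.4 FPKM in the other wild types. Cyp4f17 stood at 2.65 FPKM in wild type 1, against 3.82 to 4.01 FPKM in the other wild types.

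In 2 genes the knockouts lay on opposite sides of the wild types in title code 44 and in codes 11 and 14. The genotype difference of Cyp2w1 was larger by 1.47 ± 0.30 on the log2 scale in code 44 than in codes 11 and 14 (limma interaction term, adjusted p = 0.178). For Cyp2r1 the same difference was 0.38 (limma interaction term, adjusted p = 0.52). Of 11395 genes, limma called 0 for this interaction, and 1771 had an unadjusted p under 0.05.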

How the results depend on the processing

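The number of P450 genes called higher, 1 as reported, was 2 without a filter on low values (with Cyp4a29-ps), 2 with array weights and 2 with the title code as a block (with Cyp4b1 in both), 2 in code 44 alone (with Cyp2w1), 0 in codes 11 and 14 alone, and 1 to 2 with 1 library left out. The number called lower stayed within 1.5 times of 6 throughout. All genes called, 1785 as reported, were 3669 with array weights, 1141 with log2 Xist as a covariate and 1094 to 2326 with 1 library left out. They were 1123 without wild type 1 and, over the genes of the full fit, 1187 without wild type 2.

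Replicate numbers follow the order of the records and pair no samples, so no fit used them. The title codes recur in both genotypes, and with the code as a block 8 P450 genes passed, with Cyp2b10 and Cyp4b1 added and Cyp2g1 lost.

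Cyp11a1, Cyp2s1, Cyp2f2 and Cyp17a1 passed under every alternative that gave a value. Leaving out genes with a missing value gave none for Cyp11a1. The call of Cyp2g1 was lost also with a pseudocount of 0.1, without the filter, with quantile normalization and with Xist. Cyp2b10 and Cyp4f13 passed with array weights.

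Among genes that did not pass, the sign turned for Cyp2w1 (-0.41) and Cyp2j9 (-0.18) in codes 11 and 14 alone, for Cyp2b19 (0.33) in code 44, and for Cyp3a13 (-0.022) with array weights. It turned for Cyp2r1 with Xist (0.0099) and in code 44 (0.13), for Cyp2j6 with Xist (-0.015) and in codes 11 and 14 (-0.055), and for Cyp4f17 with array weights (0.058) and in code 44 (0.079). With 1 library left out, Cyp3a13 ranged from -0.022 to 0.21, Cyp2j9 from -0.0204 to 0.18, Cyp2r1 from -0.14 to 0.054, Cyp2j6 from -0.013 to 0.075 and Cyp4f17 from -0.12 to 0.076. Cyp3a13 was -0.017 without knockout 4, and Cyp4f17 was 0.0026 without knockout 1 and 0.022, 0.011 and 0.0304 without wild types 2, 3 and 4. The cause was not tested. Over the 9 partner lists and 28 alternatives, 409 of 504 recomputed counts of calls stayed within 1.5 times.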
